A study of Mus musculus with 8 samples.

Results

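The interferon-stimulated genes described here are 45 mouse genes, taken from a list by gene symbol. All 45 were found once each among the 34745 genes of the deposited table, and all 45 were among the 15009 genes that passed a filter on low counts. The RNA came from liver of age-matched male mice that had received diethylnitrosamine (DEN), a carcinogen that is activated in hepatocytes, and was sampled 8 months later. Mice had been given a pT3 plasmid carrying mouse APOBEC3B, which the sample titles call mA3, or the pT3-vector plasmid. The samples were tumours and pieces of liver labelled as relatively normal, called adjacent here. A tumour and an adjacent library with the same plasmid and number in their titles were taken as the same mouse. The 4 groups were mA3 tumour (mice 1 and 2), vector tumour (mice 1 and 9), mA3 adjacent (mice 1 and 2) and vector adjacent (mice 1 and 9). Mouse 1 of the mA3 group and mouse 1 of the vector group carry the same number in different groups and are not paired here. All groups share the DEN treatment and a plasmid. No group without DEN was analysed here, and for strain, exact age, plasmid promoter and route the sources used here give nothing. Each group thus held 2 libraries, and beyond the numbering of the mice nothing says that they were separate animals, so p-values measure the spread between these samples, which may be technical.

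Interferons are secreted proteins that warn cells of infection. Type I and type III interferons act through receptors and Jak kinases on a complex that holds STAT2 and IRF9 and binds the interferon-stimulated response element (ISRE) near its target genes, and interferon-gamma acts through the gamma-activated site (GAS). The target genes encode sensors of foreign nucleic acid, transcription factors that amplify the response, ubiquitin-like modifiers and proteins that block viruses, and in liver they are induced in hepatocytes as well as in resident macrophages.

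To show control sequences of members that recur below, the 300 bases around the annotated start (250 before and 50 from the start onward; RefSeq, GRCm38.p6) are given for 4 genes. RefSeq windows matched 33 of the 45 members, with 39 windows. Among the matched members, those shown were named in most comparisons, with 1 gene per role and ties broken by the alphabet. All 4 windows come from genes on the minus strand and read 5′ to 3′ along the gene: Ifi44 at chr3:151749861-151750160, Dtx3l at chr16:35938978-35939277, Oas1a at chr5:120907476-120907775 and Ddx58 at chr4:40239776-40240075. Capitals mark matches to an ISRE written as GAAANNGAAA or to a GAS written as TTCNNNGAA, on either strand.
Ifi44: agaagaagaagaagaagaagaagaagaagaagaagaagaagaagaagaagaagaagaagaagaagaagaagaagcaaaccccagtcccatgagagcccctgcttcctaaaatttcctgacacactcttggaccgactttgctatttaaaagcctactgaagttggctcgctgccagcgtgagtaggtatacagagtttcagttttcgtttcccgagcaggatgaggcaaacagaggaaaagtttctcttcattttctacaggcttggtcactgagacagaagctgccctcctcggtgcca
Dtx3l: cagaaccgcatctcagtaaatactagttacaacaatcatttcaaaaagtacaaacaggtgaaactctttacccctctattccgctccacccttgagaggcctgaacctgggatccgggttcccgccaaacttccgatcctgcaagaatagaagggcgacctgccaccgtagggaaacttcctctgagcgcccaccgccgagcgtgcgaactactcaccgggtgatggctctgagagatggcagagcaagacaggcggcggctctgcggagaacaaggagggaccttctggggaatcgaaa
Oas1a: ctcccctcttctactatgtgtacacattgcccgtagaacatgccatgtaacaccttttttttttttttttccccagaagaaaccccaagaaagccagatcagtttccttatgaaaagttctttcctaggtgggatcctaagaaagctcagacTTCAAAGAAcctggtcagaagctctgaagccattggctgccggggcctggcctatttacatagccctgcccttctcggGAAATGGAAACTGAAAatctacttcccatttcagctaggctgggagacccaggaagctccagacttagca
Ddx58: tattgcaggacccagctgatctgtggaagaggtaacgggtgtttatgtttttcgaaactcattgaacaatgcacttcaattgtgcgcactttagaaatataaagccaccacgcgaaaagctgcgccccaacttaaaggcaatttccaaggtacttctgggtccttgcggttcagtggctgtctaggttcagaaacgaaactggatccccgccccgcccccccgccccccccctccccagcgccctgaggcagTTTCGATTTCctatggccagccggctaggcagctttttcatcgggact
In the window of Oas1a, ISRE matches lay at -20 to -11 and at -14 to -5 relative to the start, overlapping each other, and a GAS match lay at -98 to -90. The window of Ddx58 held an ISRE match on the other strand at 3 to 12, counting the start base as 1. The windows of Ifi44 and Dtx3l held these letters nowhere. Of the 39 member windows, 16 (41%) had an ISRE match, against 3.44% of all 32851 windows, and 9 (23.1%) had a GAS match, against 8.3% of all windows. Isg15, whose protein is a ubiquitin-like modifier, had the most ISRE matches of any member window, with 3.

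Levels within the group covered a wide range. Per gene length (FPKM, fragments scaled to gene length and library size), the highest was Bst2, which encodes tetherin, a membrane protein that holds budding viruses at the cell surface, at a mean of 160 FPKM over the 8 libraries (range 103 to 221). It was followed by Iigp1, an immunity-related GTPase, at 148 FPKM (77.4 to 278), and by Ifi27 at 64.7 FPKM (50.8 to 84.6). The range of Iigp1 overlapped that of Bst2 and that of Ifi27, while every library held more Bst2 than the highest level of Ifi27. Stat2 (26.9 FPKM, range 10.4 to 50.5), Isg15 (18.1 FPKM, 4.997 to 37.9) and Lgals3bp (16.8 FPKM, 5.79 to 30.2) came next, with ranges that overlapped. In all, 8 members had a mean over 10 FPKM, 33 lay between 1 and 10 FPKM, and 4 lay under 1 FPKM. Those 4 were Herc6, Oasl2, Mx1 and Oas3, the last at 0.176 FPKM. Iigp1 and Bst2 made up 50.6% to 59% of the summed FPKM of the 45 genes in each library. That sum ran from 469 to 694 FPKM. Counting precision differed accordingly, from 225 reads over all libraries for Oas3 to 70304 for Iigp1.

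Members also differed in how much they varied between libraries. In CPM (counts scaled to a common library size), the ratio of the highest to the lowest library had a median of 2.8, was over 3 in 22 members and under 2 in 10. It was 9.01 for Ifi44, 8.17 for Oas2, 7.27 for Isg15 and 6.48 for Oas1a, and 1.39 for Parp14. The plot of all members by library shows that the members did not vary as a block. Oas1a, Ifi44 and Isg15 were high in the libraries labelled mA3 tumour, and Dtx3l and Parp9 were high in adjacent liver. Stat2, Mx1, Mx2 and Oas2 lay lower in both mA3 tumours than in both vector tumours. Their libraries overlapped between plasmids in adjacent liver and between tissues over both plasmids.

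**Figure D1:**
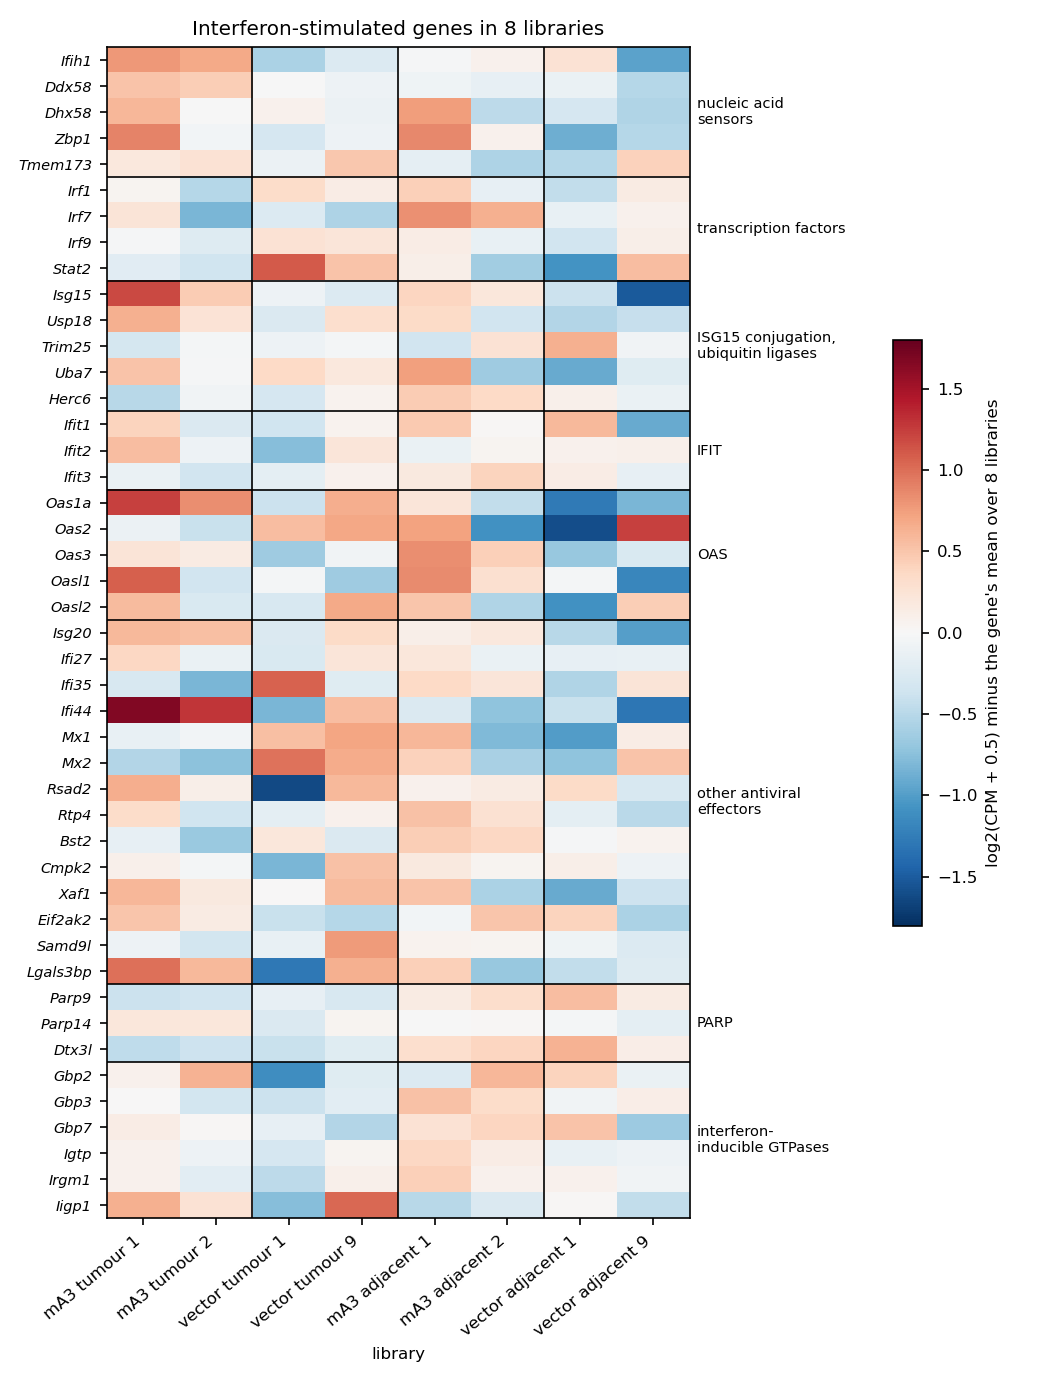
Level of each of the 45 genes (rows, by role) in each of the 8 libraries (columns), as log2(CPM + 0.5) minus the gene's mean over the 8 libraries; red is above and blue below that mean. Ifi44 and Isg15 are reddest in mA3 tumour 1, and Dtx3l and Parp9 are blue in all 4 tumour libraries.

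For the series as a whole, total counts per library ran from 12969929 to 22882531. Hepatocyte marker genes were present in every library, none of 6 at 0, but their level differed widely. Their summed level ran from 35050 CPM in vector adjacent 9 to 199800 CPM in mA3 tumour 1. Alb alone ran from 21090 to 171200 CPM in the same 2 libraries. In tumour over adjacent liver of both plasmids, 3 of the 6 markers lay above 0. The part of these differences in the members' values was not tested. Apobec3, taken as the gene of the plasmid, stood at 10.6 and 15.3 CPM in mA3 tumours 1 and 2 against 7.85 and 15.2 CPM in vector tumours 1 and 9, and at 44.96 and 35.1 CPM in mA3 adjacent 1 and 2 against 2.71 and 9.96 CPM in vector adjacent 1 and 9. It therefore separated the plasmids in adjacent liver and not in tumours, and directions given for mA3 tumours rest on their labels. Vector libraries held Apobec3 reads as well, so a read counted at this gene need not come from the plasmid. Whether the difference in adjacent liver came from the plasmid was not tested. Vector tumour 1 resembled adjacent liver, with a correlation across genes of 0.959 with mA3 adjacent 1 and of 0.912 with vector tumour 9. The log2 differences of named members that use it are also given without it.

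Tumour was first compared with adjacent liver over both plasmids, 4 libraries against 4. Oas1a and Ifi44 had higher levels in tumour, and Dtx3l and Parp9 lower levels, but none of the 45 members passed: edgeR's quasi-likelihood test, adjusted over the 15009 genes, called 0 of 45, while it called 4.64% of all genes tested (696 genes, and 0 to 1622 with 1 library left out). DESeq2 called 3 members, Oas1a, Ifi44 and Dtx3l, against 12.9% of all genes, and limma-voom and limma on FPKM called 0. Here and below, a 0 from DESeq2 or limma is given without its share of all genes. It is therefore not read as a result about the members. At an unadjusted p under 0.05, 4 members were higher, against 11.9% of all genes, and 3 were lower, against 10.6%. The median log2 difference of the members was 0.06 with 25 of 45 above 0, beside a median of 0.01 over all genes tested. As a group the members thus lay close to all genes.

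Oas1a encodes an oligoadenylate synthetase, which on double-stranded RNA makes the messenger that activates RNase L. Its level was 18.8 and 14.2 CPM in mA3 tumours 1 and 2 and 5.85 and 12.5 CPM in vector tumours 1 and 9, against 9.11 and 5.56 CPM in mA3 adjacent 1 and 2 and 2.91 and 4.16 CPM in vector adjacent 1 and 9. The tumour was above the adjacent liver of the same mouse in each of the 4 mice, although vector tumour 1 lay below mA3 adjacent 1. The log2 difference was 1.28 ± 0.33 (SE; edgeR adjusted p = 0.0702). It was 1.497 without vector tumour 1 and 0.94 without vector tumour 9. With the mouse as a block it was 1.25 ± 0.25 and passed (adjusted p = 0.0417), the only member to do so, beside 5.86% of all genes called in that fit. Oas1a may share reads with its near-identical neighbours.

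Ifi44, an interferon-induced cytoplasmic protein gene, stood at 25.4 and 19.4 CPM in mA3 tumours 1 and 2 and at 4.13 and 11.5 CPM in vector tumours 1 and 9, against 6.36 and 4.46 CPM in mA3 adjacent 1 and 2 and 5.72 and 2.82 CPM in vector adjacent 1 and 9. Vector tumour 1 lay within the range of the adjacent libraries, and the other 3 tumours lay above all of them. The log2 difference was 1.45 ± 0.39 (SE; edgeR adjusted p = 0.0749). Without vector tumour 1 it was 1.73, and without vector tumour 9 it was 0.99.

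The sensors differed less. Ddx58, which encodes the RNA sensor RIG-I, had 46.6 and 44.4 CPM in mA3 tumours 1 and 2 and 32.2 and 30.3 CPM in vector tumours 1 and 9, against 30.9 and 29.3 CPM in mA3 adjacent 1 and 2 and 29.7 and 22.6 CPM in vector adjacent 1 and 9. All 5 sensor genes had a log2 difference above 0, from 0.24 to 0.45, and for Ddx58 it was 0.43 ± 0.18 (SE; edgeR adjusted p = 0.217), or 0.40 without vector tumour 1. The OAS and IFIT genes other than Oas1a had log2 differences from -0.29 to 0.29.

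Dtx3l and Parp9 were lower. Dtx3l, a ubiquitin ligase gene, stood at 26.7 and 28.3 CPM in mA3 tumours 1 and 2 and at 27.9 and 31.7 CPM in vector tumours 1 and 9, against 45.8 and 48.5 CPM in mA3 adjacent 1 and 2 and 57.4 and 39.9 CPM in vector adjacent 1 and 9. Parp9, whose protein of the ADP-ribosyltransferase family is the partner of the DTX3L ligase, stood at 27.6 and 28.3 CPM in mA3 tumours 1 and 2 and at 32.7 and 29.6 CPM in vector tumours 1 and 9, against 40.3 and 45.3 CPM in mA3 adjacent 1 and 2 and 53.3 and 40.2 CPM in vector adjacent 1 and 9. In both genes every tumour library lay below every adjacent library. They were the only 2 members whose libraries did not overlap in that direction, against 5.32% of all genes, and 0 members had all tumours above all adjacent libraries, against 6.81%. The log2 difference was -0.74 ± 0.20 for Dtx3l (edgeR adjusted p = 0.074) and -0.60 ± 0.19 for Parp9 (adjusted p = 0.109). Without vector tumour 1 it was -0.70 for Dtx3l and -0.64 for Parp9. The genes lie head to head on chromosome 16 and overlap by 682 bp. Since no source used here gives the strand setting of the counting, reads in the overlap cannot be assigned, and the genes are not independent measurements.

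Among the transcription factors, Irf7, which drives the induction of interferon genes, stood at 53.7 and 25.4 CPM in mA3 tumours 1 and 2 and at 38.4 and 30.8 CPM in vector tumours 1 and 9, against 80.9 and 71.3 CPM in mA3 adjacent 1 and 2 and 41.4 and 47.9 CPM in vector adjacent 1 and 9. In each mouse the tumour was lower, and mA3 adjacent liver held the 2 highest values. The log2 difference was -0.66 ± 0.27 (SE; edgeR adjusted p = 0.194), or -0.74 without vector tumour 1. In bulk tissue, fewer cells of a type and less RNA per cell cannot be told apart. Kupffer cell and macrophage markers also had lower levels in tumour: 0 of 8 lay above 0, the median log2 difference was -1.33, and Clec4f (-1.66 ± 0.32, edgeR adjusted p = 0.0334) and Timd4 (-2.47 ± 0.50, adjusted p = 0.0385) fell. Their summed level was 138 to 170 CPM in mA3 tumours, 89.8 to 186 CPM in vector tumours, 407 to 456 CPM in mA3 adjacent liver and 172 to 341 CPM in vector adjacent liver, with no marker at 0. Their part in the members' values was not tested.

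**Figure D2:**
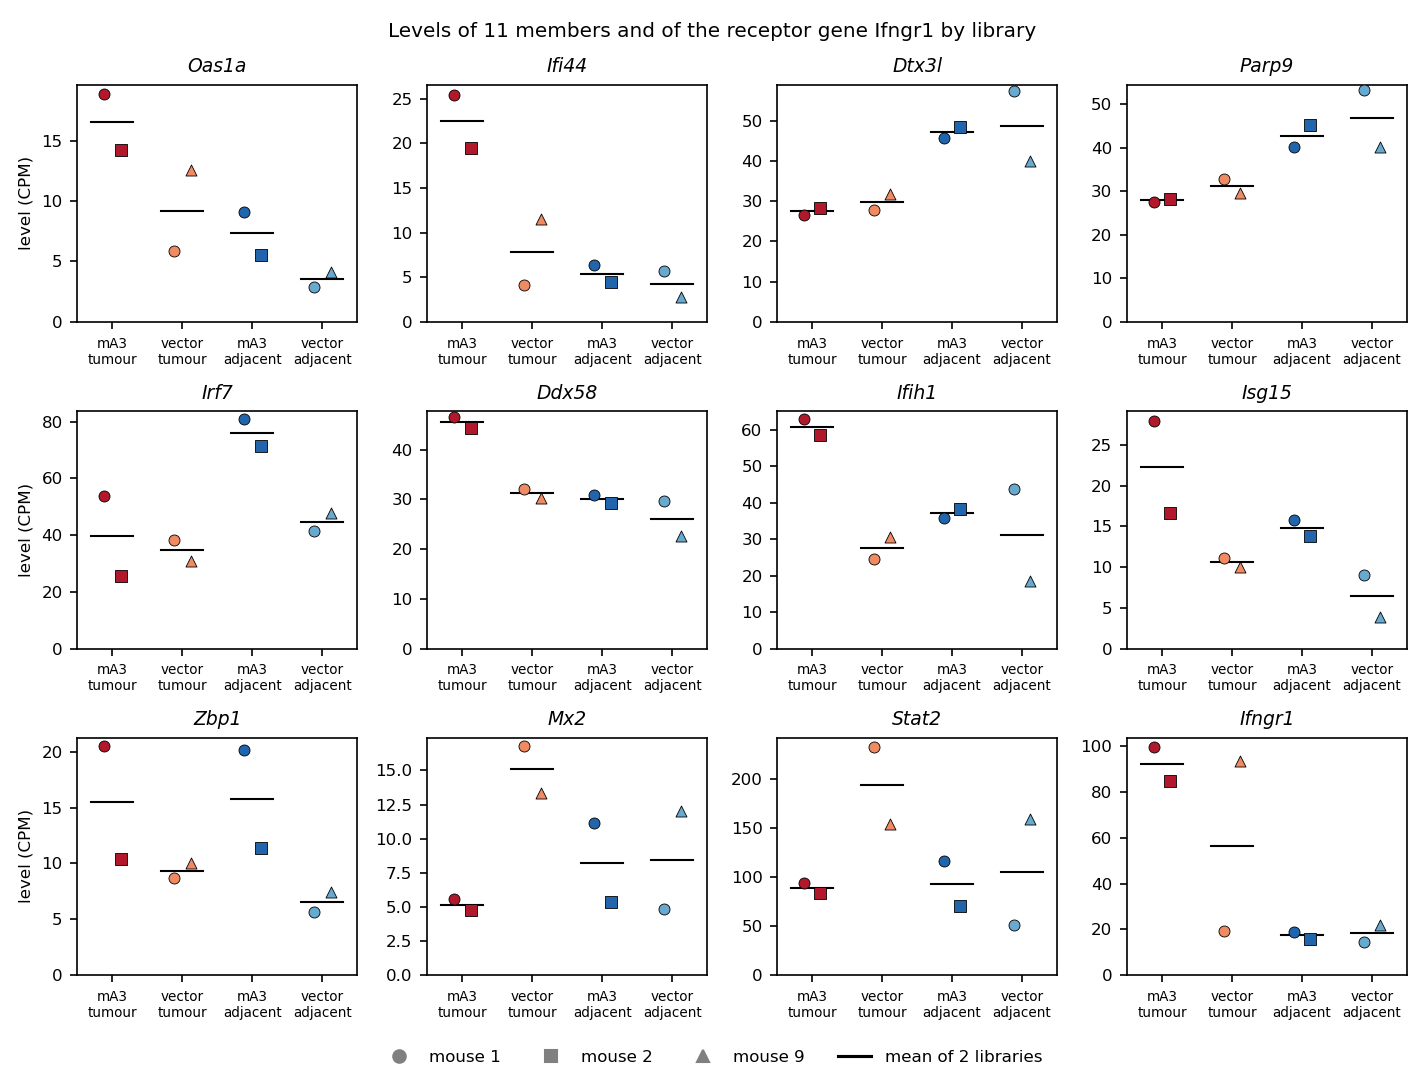
Level in CPM (linear axis from 0) of 11 members and of the receptor gene Ifngr1 in the 8 libraries, by group; points are libraries, their shape the mouse number within a plasmid, and bars the mean of 2 libraries. Dtx3l and Parp9 lie lower in all 4 tumours, and vector tumour 1 lies with adjacent liver for Ifi44 and Ifngr1.

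Within single mice, 8 members were higher in tumour in each of the 4 mice (Isg15, Isg20, Ddx58, Oas1a, Oasl2, Usp18, Xaf1 and Tmem173), against 15.8% of all genes, which is near the members' own share of 17.8%. A further 4 were lower in each mouse (Irf7, Parp9, Dtx3l and Gbp3), against 14.8% of all genes. Tumour was higher in 21 of 45 members in mA3 mouse 1, in 20 in mA3 mouse 2, in 21 in vector mouse 1 and in 35 in vector mouse 9. Vector mouse 9 was thus the mouse with a majority of members higher in its tumour, with a median log2 difference of 0.25 against -0.02 over all genes.

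The same comparison within vector mice, 2 libraries against 2, gave 0 of 45 members called by edgeR, where it called 0% of all genes, and 0 by DESeq2, limma-voom or limma on FPKM. At an unadjusted p under 0.05, 1 member was higher (Oas1a, background 5.28%) and 1 was lower (Dtx3l, background 4.02%). Libraries did not overlap in 13 members that were higher, against 18.2% of all genes, and in 5 that were lower, against 16.5%. The median log2 difference was 0.24 with 27 of 45 above 0, beside 0.04 over all genes. It was 0.32 without vector tumour 1 and -0.15 without vector tumour 9, so that its direction rests on vector mouse 9.

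The members with the smallest p in vector mice were Oas1a (log2 difference 1.39 ± 0.47, SE; edgeR adjusted p = 0.518), Xaf1 and Isg20 among the higher ones and Dtx3l (-0.71 ± 0.28, adjusted p = 0.523), Parp9 (-0.59 ± 0.27) and Gbp2 among the lower ones. Xaf1, an apoptosis-promoting gene, stood at 11.2 and 16.9 CPM in vector tumours 1 and 9 against 5.72 and 8.47 CPM in vector adjacent 1 and 9, while mA3 tumours 1 and 2 held 17.2 and 12.6 CPM and mA3 adjacent 1 and 2 held 16.1 and 7.34 CPM. Isg20, an exonuclease gene, stood at 2.92 and 4.75 CPM in vector tumours 1 and 9 against 2.41 and 1.57 CPM in vector adjacent 1 and 9, while mA3 tumours 1 and 2 held 5.66 and 5.47 CPM and mA3 adjacent 1 and 2 held 3.92 and 4.19 CPM. For both genes each tumour lay above both adjacent libraries of vector mice, by log2 differences of 0.99 ± 0.45 for Xaf1 and 0.94 ± 0.43 for Isg20 (edgeR adjusted p = 0.539 each). Without vector tumour 1, which leaves a single vector tumour, the log2 difference was 1.83 for Oas1a, 1.25 for Xaf1, 1.24 for Isg20, -0.62 for Dtx3l and -0.66 for Parp9. Gbp2, a guanylate-binding protein gene, stood at 1.55 and 3.31 CPM in vector tumours 1 and 9 against 5.37 and 3.61 CPM in vector adjacent 1 and 9, while mA3 tumours 1 and 2 held 4.18 and 6.38 CPM and mA3 adjacent 1 and 2 held 3.27 and 6.25 CPM. Its difference was -0.89 ± 0.54 (adjusted p = 0.596), and -0.45 without vector tumour 1.

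Within mice labelled mA3, edgeR called 0 of 45 members and 1.19% of all genes, and DESeq2 called 1 member, Ifi44, against 1607 genes in all. limma-voom and limma on FPKM called 0 members. At an unadjusted p under 0.05, 3 members were higher (Ifi44, Ddx58 and Oas1a, background 10.3%) and 4 were lower (Irf7, Bst2, Parp9 and Dtx3l, background 9.74%). Libraries did not overlap in 10 members that were higher, against 29.7% of all genes, and in 13 that were lower, against 28.3%. The median log2 difference was -0.07, with 20 of 45 above 0. It was 0.20 without mA3 adjacent 1 and -0.31 without mA3 adjacent 2, so that its direction depends on which adjacent library is used.

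Ifi44 had a log2 difference of 2.05 ± 0.55 in mA3 mice (SE; edgeR adjusted p = 0.0965), the largest difference of any member there. With 1 library left out, this difference ranged from 1.82 (without mA3 adjacent 2) to 2.35 (without mA3 adjacent 1). Oas1a differed by 1.17 ± 0.46 (adjusted p = 0.208) and Ddx58 by 0.60 ± 0.26 (adjusted p = 0.249). Among lower members, Irf7 differed by -0.94 ± 0.38 (edgeR adjusted p = 0.214; -1.58 without mA3 tumour 1 and -0.50 without mA3 tumour 2) and Dtx3l by -0.78 ± 0.28 (adjusted p = 0.173). Bst2 stood at 108 and 74.6 CPM in mA3 tumours 1 and 2 against 163 and 154 CPM in mA3 adjacent 1 and 2, while vector tumours 1 and 9 held 138 and 99.6 CPM and vector adjacent 1 and 9 held 118 and 124 CPM. Both mA3 tumours lay below both mA3 adjacent libraries, and vector tumours lay on either side of vector adjacent liver. The log2 difference of Bst2 in mA3 mice was -0.79 ± 0.33 (edgeR adjusted p = 0.229).

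**Figure D3:**
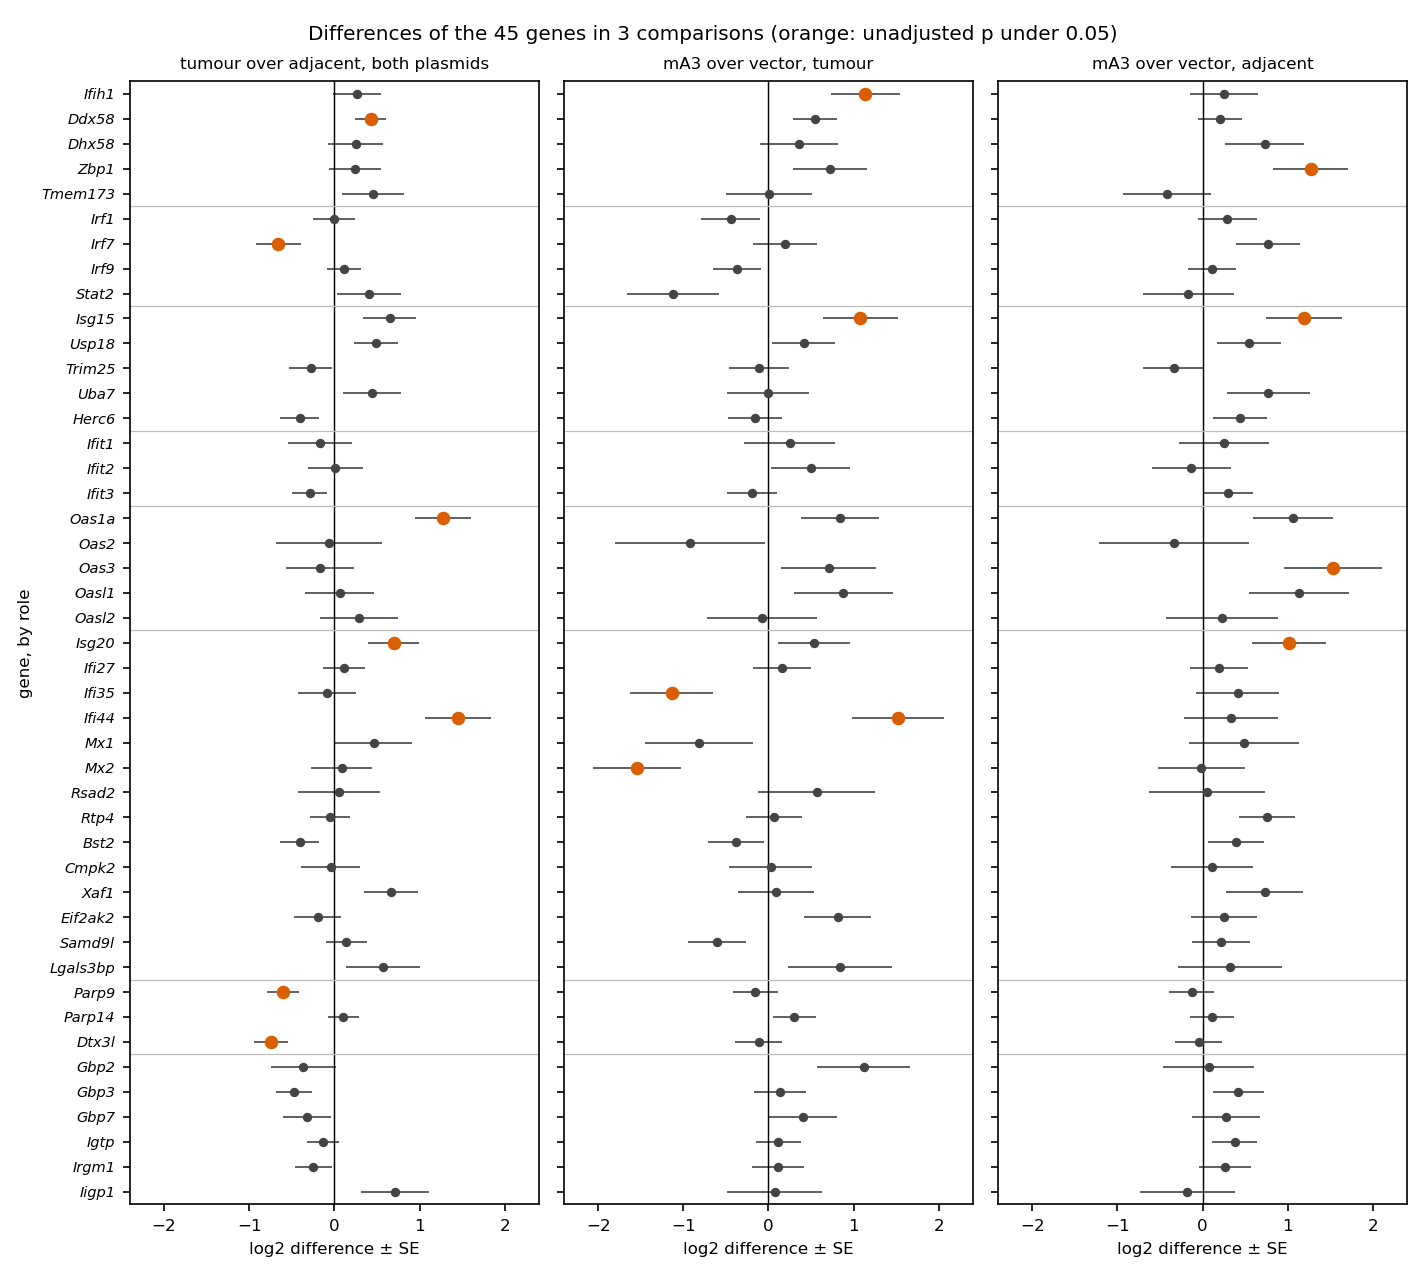
Log2 difference (horizontal axis, point and SE) of each of the 45 genes (rows, by role) for tumour over adjacent liver, for mA3 over vector tumours and for mA3 over vector adjacent liver; orange points have an unadjusted edgeR p under 0.05. In the right panel 36 of 45 points lie above 0, and no gene passes after adjustment in any panel.

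Tumours were then compared between plasmids. Since the level of Apobec3 did not separate these tumours, the comparison is between their labels and not between levels of the deaminase transcript. Of the 45 members edgeR called 0, as it called 0% of all genes, and DESeq2, limma-voom and limma on FPKM called 0 members. At an unadjusted p under 0.05, 3 members were higher in the libraries labelled mA3 tumour (Isg15, Ifi44 and Ifih1, background 6.22%) and 2 were lower (Ifi35 and Mx2, background 7.95%). Libraries did not overlap in 12 members that were higher, against 27.8% of all genes, and in 8 that were lower, against 27.4%. The median log2 difference was 0.12 with 29 of 45 above 0, beside -0.02 over all genes. It was -0.06 without vector tumour 1 and 0.41 without vector tumour 9.

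Ifih1, which encodes the RNA sensor MDA5, stood at 63.0 and 58.6 CPM in mA3 tumours 1 and 2 against 24.5 and 30.7 CPM in vector tumours 1 and 9, with 35.8 and 38.4 CPM in mA3 adjacent 1 and 2 and 43.7 and 18.4 CPM in vector adjacent 1 and 9. Both libraries labelled mA3 tumour lay above all other libraries. The log2 difference between the tumours was 1.14 ± 0.40 (SE; edgeR adjusted p = 0.313), or 0.98 without vector tumour 1. Ifi44 differed by 1.52 ± 0.54 (adjusted p = 0.313), and by 0.96 without vector tumour 1 and 2.45 without vector tumour 9. Isg15 stood at 27.9 and 16.6 CPM in mA3 tumours 1 and 2 against 11.1 and 10 CPM in vector tumours 1 and 9, a log2 difference of 1.08 ± 0.44 (edgeR adjusted p = 0.343), or 1.15 without vector tumour 1. Its 2 libraries labelled mA3 tumour were higher than both vector tumours, and they differed from each other more than the vector tumours did.

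Lower members in mA3 tumours were led by Mx2, a dynamin-like GTPase gene that GENCODE vM21 lists as a polymorphic pseudogene. Mx2 stood at 5.56 and 4.76 CPM in mA3 tumours 1 and 2 against 16.8 and 13.4 CPM in vector tumours 1 and 9, with 11.2 and 5.35 CPM in mA3 adjacent 1 and 2 and 4.82 and 12 CPM in vector adjacent 1 and 9. Its log2 difference was -1.55 ± 0.52 (SE; edgeR adjusted p = 0.312), or -1.37 without vector tumour 1. Ifi35, an interferon-induced leucine zipper protein gene, stood at 10.1 and 6.80 CPM in mA3 tumours 1 and 2 against 26.5 and 10.6 CPM in vector tumours 1 and 9, with 16.2 and 14.6 CPM in mA3 adjacent 1 and 2 and 8.43 and 14.7 CPM in vector adjacent 1 and 9. The difference of -1.14 ± 0.49 (edgeR adjusted p = 0.35) rested on vector tumour 1, since it was -0.33 without that library. Stat2, the STAT protein specific to the type I and type III pathways, stood at 93.8 and 84.2 CPM in mA3 tumours 1 and 2 against 233 and 154 CPM in vector tumours 1 and 9, with 117 and 70.4 CPM in mA3 adjacent 1 and 2 and 51.3 and 159 CPM in vector adjacent 1 and 9. Its log2 difference between tumours was -1.12 ± 0.54 (edgeR adjusted p = 0.38), and -0.80 without vector tumour 1. The 2 vector adjacent libraries differed more in Stat2 than the tumour groups did.

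Stat2 and 5 other members, Irf1, Irf9, Mx1, Mx2 and Oas2, shared a pattern that cut across the groups, noticed after their values were seen. Their 4 highest libraries were vector tumours 1 and 9, mA3 adjacent 1 and vector adjacent 9. Oas2, for example, stood at 8.46 and 6.80 CPM in mA3 tumours 1 and 2, 13.7 and 15.3 CPM in vector tumours 1 and 9, 15.4 and 4.05 CPM in mA3 adjacent 1 and 2, and 2.71 and 22.1 CPM in vector adjacent 1 and 9. The 6 members are 13.3% of the 45, and the same 4 libraries were highest in 7.86% of all genes tested. The set was defined by the 4 highest libraries of Stat2 itself, and what its genes share was not tested. Irf9, in this set, varied over a range of only 1.54-fold.

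Adjacent liver was compared between plasmids in the tissue where Apobec3 itself differed (log2 difference 2.67 ± 0.62, edgeR adjusted p = 1). Member levels leaned towards the mA3 side: 36 of 45 log2 differences were above 0, beside 48.2% of all genes, and the median was 0.28 beside -0.01. No member passed. edgeR called 0 of 45 and 0% of all genes, and DESeq2, limma-voom and limma on FPKM called 0 members. At an unadjusted p under 0.05, 4 members were higher (Isg15, Isg20, Oas3 and Zbp1), against 0.533% of all genes, and 0 were lower, against 0.5%. Both mA3 libraries lay above both vector libraries in 18 members, or 40% of them, against 10.4% of all genes. They lay below in 1 member, Ifit2, against 9.9%. The median was 0.07, with 27 of 45 above 0, without mA3 adjacent 1, and 0.35 to 0.42 without any 1 of the other 3 adjacent libraries.

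The 18 members included genes of every role listed here: they were the modifier and ligase genes Isg15, Usp18 and Herc6, the OAS genes Oas1a, Oas3 and Oasl1, the sensor gene Zbp1, the transcription factor gene Irf7, the GTPase genes Gbp3, Igtp and Irgm1, the ADP-ribosyltransferase gene Parp14, the IFIT gene Ifit3, and the other effectors Isg20, Ifi27, Rtp4, Bst2 and Samd9l. Igtp overlaps Irgm2 by 7974 bp, so that its reads may be shared. Zbp1, a sensor of nucleic acid in the Z form, stood at 20.1 and 11.4 CPM in mA3 adjacent 1 and 2 against 5.67 and 7.45 CPM in vector adjacent 1 and 9, with 20.5 and 10.4 CPM in mA3 tumours 1 and 2 and 8.66 and 10.1 CPM in vector tumours 1 and 9. In both tissues mouse 1 of the mA3 group held the highest level. The log2 difference in adjacent liver was 1.27 ± 0.44 (SE; edgeR adjusted p = 1), and 0.78 without mA3 adjacent 1.

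Isg15 stood at 15.8 and 13.8 CPM in mA3 adjacent 1 and 2 against 8.98 and 3.84 CPM in vector adjacent 1 and 9, a log2 difference of 1.20 ± 0.45 (SE; edgeR adjusted p = 1), which was 0.71 when vector adjacent 9 was left out and 1.94 when vector adjacent 1 was. Oas3 stood at 2.79 and 1.99 CPM in mA3 adjacent 1 and 2 against 0.652 and 1.02 CPM in vector adjacent 1 and 9, with 1.67 and 1.53 CPM in mA3 tumours 1 and 2 and 0.688 and 1.27 CPM in vector tumours 1 and 9. In both genes the mA3 libraries were above the vector libraries, but Oas3 rests on few reads. Its difference was 1.53 ± 0.57 (edgeR adjusted p = 1). For Isg15, Isg20, Oas1a, Oas3, Zbp1 and Parp14 the mA3 libraries lay above the vector libraries in tumours as well. The rest of the 18 members, among them Irf7 and Bst2, did so in adjacent liver and not in tumours. In tumours alone, such a separation held in 26.7% of members, against 27.8% of all genes. The share of all genes with it in both tissues was not computed.

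Among the 9 members not above 0 in adjacent liver, the smallest p-values were those of Trim25, Tmem173 and Parp9, none with a stable direction. Trim25, a ubiquitin ligase gene that acts on RIG-I, stood at 62.3 and 95.7 CPM in mA3 adjacent 1 and 2 against 124 and 76.1 CPM in vector adjacent 1 and 9, with 63.5 and 77.4 CPM in mA3 tumours 1 and 2 and 74.3 and 77.8 CPM in vector tumours 1 and 9. Tmem173, which encodes the DNA-pathway adaptor STING, stood at 2.57 and 1.85 CPM in mA3 adjacent 1 and 2 against 1.91 and 4.08 CPM in vector adjacent 1 and 9, with 3.44 and 3.60 CPM in mA3 tumours 1 and 2 and 2.69 and 4.31 CPM in vector tumours 1 and 9. Their log2 differences were -0.34 ± 0.36 and -0.42 ± 0.51 (edgeR adjusted p = 1 each), and they turned to 0.05 for Trim25 without vector adjacent 1 and to 0.21 for Tmem173 without vector adjacent 9.

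Marker lists of other cell types leaned both ways in this comparison, and edgeR called no marker. All 8 Kupffer cell and macrophage markers had a log2 difference above 0, with a median of 0.85, and their summed level was 407 and 456 CPM in mA3 adjacent 1 and 2 against 172 and 341 CPM in vector adjacent 1 and 9. All 4 B cell markers lay above 0 as well (median 1.24), at a summed 10.2 and 13.9 CPM in mA3 adjacent 1 and 2 against 5.12 and 5.26 CPM in vector adjacent 1 and 9. None of these markers was at 0 in any adjacent library. Above 0 lay 0 of 4 sinusoidal endothelium markers (median -0.07), 1 of 4 bile duct markers (median -0.31) and 2 of 6 hepatocyte markers (median -0.20). So did 5 of 7 tested T and NK cell markers (median 0.23) and 3 of 5 stellate cell and fibroblast markers (median 0.15). Of tested neutrophil markers 2 of 2 lay above 0 (median 0.39). Of tested plasmacytoid dendritic cell markers 0 of 2 did, and 1 of these, Cox6a2, had 0 counts in every adjacent library. Their part in the members' differences was not tested.

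**Figure D4:**
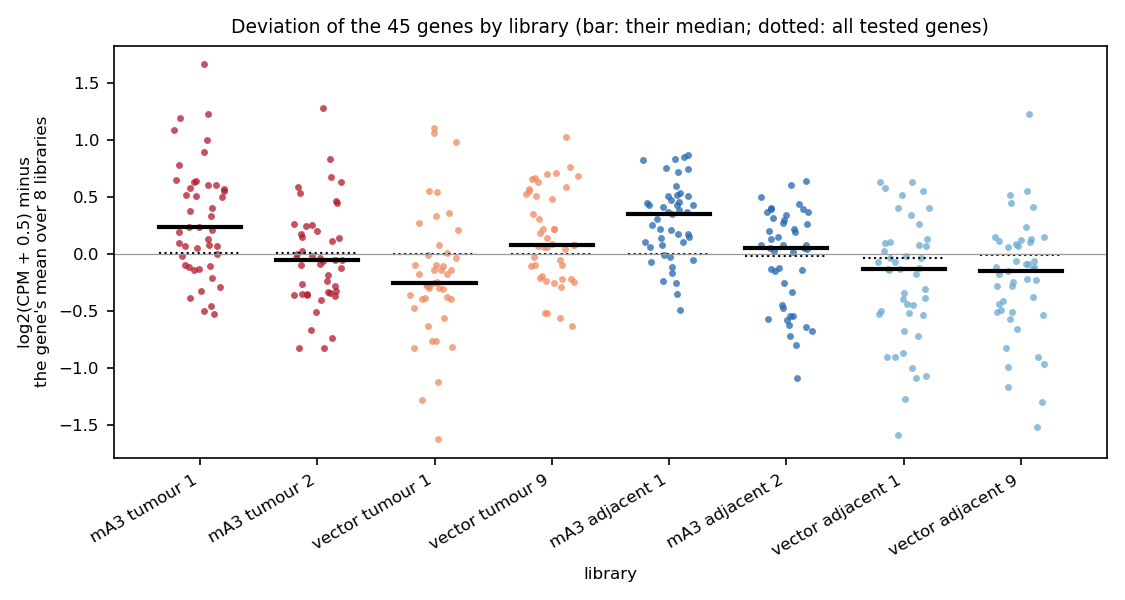
Deviation of each of the 45 genes (points) from its own mean over the 8 libraries, in log2(CPM + 0.5), by library; solid bars are the members' median and dotted lines the median of all tested genes. The members' median is highest in mA3 adjacent 1 (0.35) and mA3 tumour 1 (0.24) and lowest in vector tumour 1 (-0.25).

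By library, the members' median deviation from their own mean was 0.24 and -0.05 in mA3 tumours 1 and 2, -0.25 and 0.08 in vector tumours 1 and 9, 0.35 and 0.05 in mA3 adjacent 1 and 2, against -0.14 and -0.15 in vector adjacent 1 and 9. For all tested genes it lay between -0.04 and 0.01 in every library. Both libraries of mA3 mouse 1 were thus high. Of the 45 members 15 had their highest level in mA3 tumour 1 and 11 in mA3 adjacent 1, against 14.2% and 7.42% of all genes. Their lowest level fell in vector tumour 1, vector adjacent 1 and vector adjacent 9 in 11 members each (24.4%), against 18.2%, 17.7% and 11.7% of all genes in that order, and in vector tumour 9 in 0, against 9.91%.

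The interaction asked whether the tumour difference itself differed between the plasmids. edgeR called 0 of 45 members and 0% of all genes, and DESeq2, limma-voom and limma on FPKM called 0 members. At an unadjusted p under 0.05, 0 members were higher (background 2.03%) and 0 were lower (background 2.96%). The median log2 interaction was -0.26 with 13 of 45 above 0, beside -0.04 over all genes. It was -0.40 without vector tumour 1, 0.06 without mA3 adjacent 1 and -0.08 without vector tumour 9. A negative value means that the tumour difference was lower in mA3 mice than in vector mice.

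Ifi35 (-1.55 ± 0.69), Mx2 (-1.53 ± 0.73) and Samd9l (-0.82 ± 0.48) had the smallest p among negative interactions, and Ifih1 (0.89 ± 0.56), Ifi44 (1.19 ± 0.77) and Gbp2 (1.04 ± 0.76) among positive ones (log2 ± SE; edgeR adjusted p = 0.842 to 0.845). Without vector tumour 1 the negative ones were -0.74 for Ifi35, -1.36 for Mx2 and -1.20 for Samd9l, and the positive ones 0.74 for Ifih1, 0.63 for Ifi44 and 0.60 for Gbp2. Samd9l, which encodes an antiviral and growth-restraining protein, stood at 21.5 and 18.2 CPM in mA3 tumours 1 and 2, 20.9 and 39.5 CPM in vector tumours 1 and 9, 24.1 and 23.9 CPM in mA3 adjacent 1 and 2, and 21.9 and 19.4 CPM in vector adjacent 1 and 9. Its high value in vector tumour 9 stood apart from the other 7 libraries.

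The rest of the interferon pathway was read from lists of 77 further genes, of which 76 were matched and 60 were tested. Over both plasmids 2 of the 60 rose in tumour and 0 fell, against 4.64% of all genes called, and in each of the other 5 comparisons 0 of the 60 passed. Both were receptor genes. Ifngr1, a chain of the interferon-gamma receptor, stood at 99.5 and 84.7 CPM in mA3 tumours 1 and 2 and at 19.5 and 93.5 CPM in vector tumours 1 and 9, against 18.8 and 16.0 CPM in mA3 adjacent 1 and 2 and 14.6 and 21.96 CPM in vector adjacent 1 and 9. Its log2 level rose by 2.02 ± 0.45 (SE) with an edgeR adjusted p of 0.0471. Ifnlr1, the specific chain of the interferon-lambda receptor, stood at 6.89 and 3.07 CPM in mA3 tumours 1 and 2 and at 0.688 and 6.91 CPM in vector tumours 1 and 9, against 0.566 and 0.206 CPM in mA3 adjacent 1 and 2 and 0.301 and 0.549 CPM in vector adjacent 1 and 9. It rose by 3.39 ± 0.77 (edgeR adjusted p = 0.0497). In both genes vector tumour 1 was near adjacent liver and the other 3 tumours were high. With 1 library left out, each passed in 1 of 8 fits, the one without vector tumour 1, and the adjusted p reached 0.197 for Ifngr1 and 0.204 for Ifnlr1. Without vector tumour 9 the log2 differences were 1.24 for Ifngr1 and 2.16 for Ifnlr1.

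Transcripts of the interferons themselves were barely detected. Of 12 ligand genes, 8 had 0 counts in all 8 libraries, which at a floor of 3 counts allows up to 0.02 CPM over the summed depth (counting error only). The other 4 had 1 (Ifnb1), 2 (Ifng), 3 (Ifnk) and 3 (Ifnz) counts in total, and none was tested. Trex1, a DNA exonuclease gene that many cell types use, was also at 0 counts in every library, so a 0 in the deposited table may not mean that a transcript was absent. All 10 receptor and kinase genes lay above 0 in tumour over adjacent liver of both plasmids, at a median log2 difference of 0.39, beside 50.5% of all genes, and 6 of 10 did in vector mice, at a median of 0.21.

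Other listed genes did not pass. Between tumours, Irf3, a factor that induces interferon genes, had -1.13 ± 0.34 (mA3 over vector, log2 ± SE; edgeR adjusted p = 0.295), the kinase gene Jak1 had 0.88 ± 0.32 and Pias1, which encodes a SUMO ligase, had 1.09 ± 0.35. In tumour over adjacent liver of both plasmids, the GTPase gene Ifi47 had -0.76 ± 0.23 (edgeR adjusted p = 0.101) and Ifitm1, which restricts virus entry, had -0.94 ± 0.31 (adjusted p = 0.123). Of 9 further interferon-inducible GTPase genes tested, 9 lay above 0 in mA3 over vector adjacent liver (median 0.39). Of 21 further interferon-stimulated genes 15 did (median 0.20), with 0 called in either list. Among all genes tested 48.2% lay above 0, with a median of -0.01. The 9 GTPase genes are not all separate measurements. Positions of Gbp4, Gbp8 and Gbp9 overlap on chromosome 5, and Irgm2 overlaps the member Igtp.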

How the data were processed

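Per the labels' protocols, tissue was flash frozen, Trizol was used for RNA, and standard Illumina libraries were made. Per the file headers, the authors deposited a read count and an FPKM value for each gene and library. No source used here gives the aligner, the counting tool or whether counting used strand. The submitters' processing notes name build mm8 and Agilent Feature Extraction, a microarray program. Of 34745 deposited gene identifiers 34267 were in GENCODE vM21 (GRCm38), and 81.6% of these had the same start and end within 1 bp, so positions are read as GRCm38.

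The deposited counts were tested with edgeR 4.0.16 (R 4.3.3; filterByExpr by group, TMM scaling, 1 coefficient per group over all 8 libraries, 4 residual degrees of freedom, Benjamini-Hochberg adjustment over 15009 genes, threshold 0.05). The biological coefficient of variation was 39.1%. Standard errors came from the quasi-likelihood F statistic. CPM are TMM-scaled. Alternatives were DESeq2 1.42.0, limma-voom (limma 3.58.1), limma on log2(FPKM + 0.1) of the deposited FPKM, RLE scaling, no filter, the mouse as a block, each library left out and each vector mouse left out. The code was tested on simulated counts.

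Tumour and adjacent libraries with the same plasmid and number in their titles were taken as the same mouse. Their deviations from the group means correlated across genes at 0.175 in mA3 mice and 0.107 in vector mice. Replicate libraries differed by more than counting noise.

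The members, the lists of other pathway genes and the markers were chosen with earlier results of these data known. Named members are, in each comparison, up to 3 in each direction with the smallest p, and named pathway genes those called and up to 2 in each direction. A gene that this rule would name is not reported here. Iigp1, Oas2 and others named for level or variation were chosen after their values were seen. Gbp6 stood on 2 rows and was left out.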

Additional observations from a re-analysis of the deposited data

How the results depend on the processing

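The count of 0 members called moved as follows. For tumour over adjacent liver of both plasmids it was 3 with DESeq2 (Oas1a, Ifi44, Dtx3l), 2 without a filter on low counts (Oas1a, Ifi44), 3 without both libraries of vector mouse 1 (Oas1a, Ifi44, Iigp1), 1 without both libraries of vector mouse 9 (Dtx3l) and 0 to 2 with 1 library left out. Within mA3 mice it was 1 (Ifi44) with DESeq2, without a filter, without vector mouse 1 or without vector mouse 9, and 0 to 1 with 1 library left out. For mA3 over vector tumours it was 2 without a filter (Ifi44, Mx2) and 4 without vector mouse 9 (Ifi44, Ifih1, Rsad2, Ifi35). In the other 3 comparisons it was 0 under every alternative run.

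With the mouse as a replicate block, 1 member passed for tumour over adjacent liver of both plasmids (Oas1a), and its log2 difference was then 1.25. The block changed no other call of a member, or of Ifngr1 and Ifnlr1, in the 3 tumour comparisons or the interaction. Comparisons between plasmids have no paired libraries.

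With 1 library left out, the members' median log2 difference ranged from -0.083 to 0.18 for both plasmids, -0.15 to 0.32 in vector mice, -0.31 to 0.20 in mA3 mice, -0.062 to 0.41 for mA3 over vector tumours, 0.066 to 0.42 for mA3 over vector adjacent liver and -0.43 to 0.063 for the interaction. Without both libraries of vector mouse 9 it was -0.082 in vector mice, 0.41 for mA3 over vector tumours and 0.10 for the interaction.

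Among named genes, 9 values changed sign. In mA3 over vector adjacent liver, Trim25 was 0.055 without vector adjacent 1 and 0.082 without vector mouse 1, Tmem173 was 0.21 without vector adjacent 9 and 0.22 without vector mouse 9, and Parp9 was 0.0066 on FPKM, 0.089 without vector adjacent 1 and 0.11 without vector mouse 1. In the interaction without vector mouse 1, Ifih1 was -0.053 and Ifi44 -0.0067. With 1 library left out, Trim25 ranged from -0.69 to 0.055, Tmem173 from -0.87 to 0.21 and Parp9 from -0.32 to 0.089. Of the other values of named genes, 546 kept direction and side of the threshold, 22 passed where they had not and 19 no longer passed, all of the last for Ifngr1 and Ifnlr1. The causes were not tested. Counting limits Oas3 most among the members, with 225 reads in all.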
